A study of Mus musculus with 43 samples.

Results

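Cell division was followed through 35 genes in retinas of mice after laser injury. The genes were chosen by symbol, as members of the machinery that copies, condenses, separates and divides the chromosomes, and all 35 were found among the 54532 genes of the deposited count table. The members were *Cdk1* and the cyclins *Ccna2*, *Ccnb1*, *Ccnb2*, *Ccne1* and *Ccne2*, the replication genes *Mcm2* to *Mcm7* and *Pcna*, and *Rrm1*, *Rrm2* and *Tyms* of nucleotide supply. Mitotic kinases and checkpoint proteins were *Aurka*, *Aurkb*, *Plk1*, *Bub1*, *Bub1b* and *Birc5*. Chromosome and spindle genes were *Mki67*, *Top2a*, *Cenpe*, *Cenpf*, *Kif11*, *Kif20a*, *Nusap1*, *Tpx2* and *Prc1*, and *Cdc20*, *Ube2c*, *Racgap1* and *Ect2* act in anaphase and cytokinesis.

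Retinal RNA of C57BL/6J mice, 9 weeks old, was sequenced after a laser had been used to induce choroidal neovascularization (CNV), the growth of vessels from the choroid towards the retina. Males and females drank either plain water (control) or water with short-chain fatty acids (SCFA, namely acetate at 67.5 mM, propionate at 40 mM and butyrate at 25 mM), given from before the laser until the retinas were taken at 3, 7 or 14 days post laser (dpl). This gave 12 groups and 43 libraries, each a pool of 2 retinas from different animals, with 3 to 5 libraries a group. All 12 groups were lasered, so that no retina without injury stands beside them, and each library averages the lesions with the uninjured retina around them.

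A dividing cell makes its cell cycle proteins in waves. Cyclin E and the replication machinery lead into and through DNA synthesis, cyclin A and cyclin B with Cdk1 drive the cell into mitosis, and the anaphase-promoting complex ends it by marking cyclin B for destruction. Neurons of the adult mouse retina have left the cell cycle, whereas microglia, infiltrating immune cells, endothelial cells and fibroblasts can divide after an injury. Genes of mitosis often share the CHR element and the CCAAT box in their promoters, and genes of DNA replication often carry E2F sites. In whole retina, fewer cells of a kind and less RNA per cell cannot be told apart.

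Promoters are shown for the 3 members that were called in a comparison of days within a treatment, *Top2a*, *Cdk1* and *Bub1b*, because *Top2a* fell in controls, *Cdk1* fell with SCFA and *Bub1b* rose with SCFA between 3 and 14 dpl. The sequences are from RefSeq on GRCm38.p6, read 5′ to 3′ on the strand of the gene, from 250 bases before to 50 bases after the start of the gene. *Top2a* is at chr11:99024140-99024439 on the minus strand, *Cdk1* at chr10:69352863-69353162 on the minus strand and *Bub1b* at chr2:118597961-118598260 on the plus strand. Capitals mark matches on either strand to the CHR (TTTGAA), the CCAAT box (CCAAT) and the E2F forms TTTCCCGC, TTTGGCGC, TTTCGCGC and TTTGCCGC.
Top2a: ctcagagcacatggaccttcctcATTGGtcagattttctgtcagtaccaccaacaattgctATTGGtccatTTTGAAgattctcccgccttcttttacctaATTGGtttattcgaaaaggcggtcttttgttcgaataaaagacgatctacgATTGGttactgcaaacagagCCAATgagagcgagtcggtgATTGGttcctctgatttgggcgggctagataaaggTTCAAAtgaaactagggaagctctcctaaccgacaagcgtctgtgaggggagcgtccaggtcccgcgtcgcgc
Cdk1: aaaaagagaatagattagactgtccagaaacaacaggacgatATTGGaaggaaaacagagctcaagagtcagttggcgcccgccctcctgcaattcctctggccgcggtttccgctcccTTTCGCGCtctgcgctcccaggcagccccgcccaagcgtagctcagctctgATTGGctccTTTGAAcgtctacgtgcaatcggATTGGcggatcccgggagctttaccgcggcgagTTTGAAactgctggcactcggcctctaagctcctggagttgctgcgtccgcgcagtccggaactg
Bub1b: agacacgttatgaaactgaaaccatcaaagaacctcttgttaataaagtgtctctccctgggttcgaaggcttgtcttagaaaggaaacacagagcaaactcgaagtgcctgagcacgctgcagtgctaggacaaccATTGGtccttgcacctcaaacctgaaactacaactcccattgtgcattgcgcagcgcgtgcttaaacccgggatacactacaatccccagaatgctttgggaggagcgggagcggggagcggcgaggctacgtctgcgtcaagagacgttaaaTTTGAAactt
The *Top2a* window held 2 CHR matches, 179 and 23 bases before the start, and 6 CCAAT boxes. In the *Cdk1* window there were 2 CHR matches, 71 and 15 bases before the start, 3 CCAAT boxes and an E2F match 131 bases before the start. *Bub1b* had a CHR match 40 bases after the start and a CCAAT box 113 bases before it. These are matches of letters, not sites of binding.

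Promoters of 29 of the 35 members were in the table of 20584 promoters, and those of *Ccna2*, *Ccne2*, *Mcm4*, *Kif20a*, *Tpx2* and *Aurkb* were not matched. CHR letters occurred in 15 of the 29 (51.7%), against 16.8% of all promoters, and a CCAAT box in 25 (86.2%), against 38.2%. Both stood together in 15 of the 29 and in 6.67% of all promoters. An E2F form was found in 5 members (17.2%), against 2.64% of all promoters. By role, all 4 members of anaphase and cytokinesis held a CHR and a CCAAT box, 4 of the 6 replication promoters held an E2F form, and 5 of the 7 promoters of chromosome and spindle genes held a CHR.

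Library totals of the 42 libraries analysed ran from 14826957 to 21507527 counts (median 17699329). Levels are in CPM, which divides a gene's count by the library size after scaling with TMM in edgeR. A library with 3 counts or fewer of a gene, 0.136 to 0.208 CPM, was taken to be at the floor, which covers counting error only. The library labelled female SCFA 3 dpl replicate 2 held 292223 CPM of 14 lens markers, against 36.8 to 851 CPM in the other 42, and was left out. The library labelled female control 7 dpl replicate 2 held 38.8 CPM of 4 Y-linked transcripts, against 0 in the other 21 female and 137 to 294 CPM in the 21 male libraries. It was kept, and results that turn on it are given without it as well. The deposited table lists its columns in a first run of 31 and a second run of 12 libraries, and 53.3% of the 18173 genes tested differed between the runs, which were used as a block. Among the members, 10 of 33 differed between the runs, among them *Cdk1*, lower in the second run by 0.86 on the log2 scale (SE 0.30, adjusted p = 0.0170, edgeR's quasi-likelihood test). The second run gave 2 of 7, 0 of 6 and 2 of 6 control libraries at 3, 7 and 14 dpl, and 4 of 7, 3 of 9 and 1 of 7 SCFA libraries. Rod markers summed to between 55813 and 114192 CPM in the 42 libraries, and the labels name retina.

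The members differed widely in level. Per kilobase of exon, the median over the 42 libraries was highest for *Pcna*, the sliding clamp of DNA polymerases, at 36.3 CPM per kb, followed by *Bub1b*, a kinase-like protein of the spindle checkpoint, at 9.67, *Ccna2* (cyclin A2) at 7.22 and *Mcm7*, a subunit of the replicative helicase, at 4.84. At the other end stood *Top2a*, the topoisomerase that untangles sister chromosomes, at 0.015 CPM per kb, *Bub1*, a checkpoint kinase, at 0.013, *Mki67*, which encodes the proliferation marker Ki-67, at 0.0097, and *Aurkb*, the kinase of the chromosomal passenger complex, at 0.0077. In CPM, 23 members had a median of 1 or more and 12 a median below 1, and all 7 replication genes were among the 23. *Bub1*, *Aurkb*, *Mki67* and *Top2a* were at the floor in 36, 36, 28 and 27 of the 42 libraries.

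Partners in a complex were far apart on this scale. *Rrm1*, the large subunit of ribonucleotide reductase, had a median level of 2.40 CPM per kb, while *Rrm2*, the small subunit that dividing cells make in S phase, had 0.086 CPM per kb. *Cdk1*, which cyclin A2 can bind, had 0.090 CPM per kb. Some of these counts may rest on exons shared with other genes, since the strand setting of the counting is not given in the sources used here. Exons of a gene on the other strand covered 29.3% of the exon bases of *Kif20a* (*Cdc23*), 22.8% of *Ube2c* (*Tnnc2*), 17.4% of *Ccne2* (*Ints8*), 12.5% of *Ccna2* (*Exosc9*) and 11.1% of *Prc1* (*Rccd1*), whereas *Bub1b* had no such overlap. The pseudogene *Ccnb2-ps* reached 361 counts in a library, so that reads may have been split between it and *Ccnb2*.

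**Figure D1:**
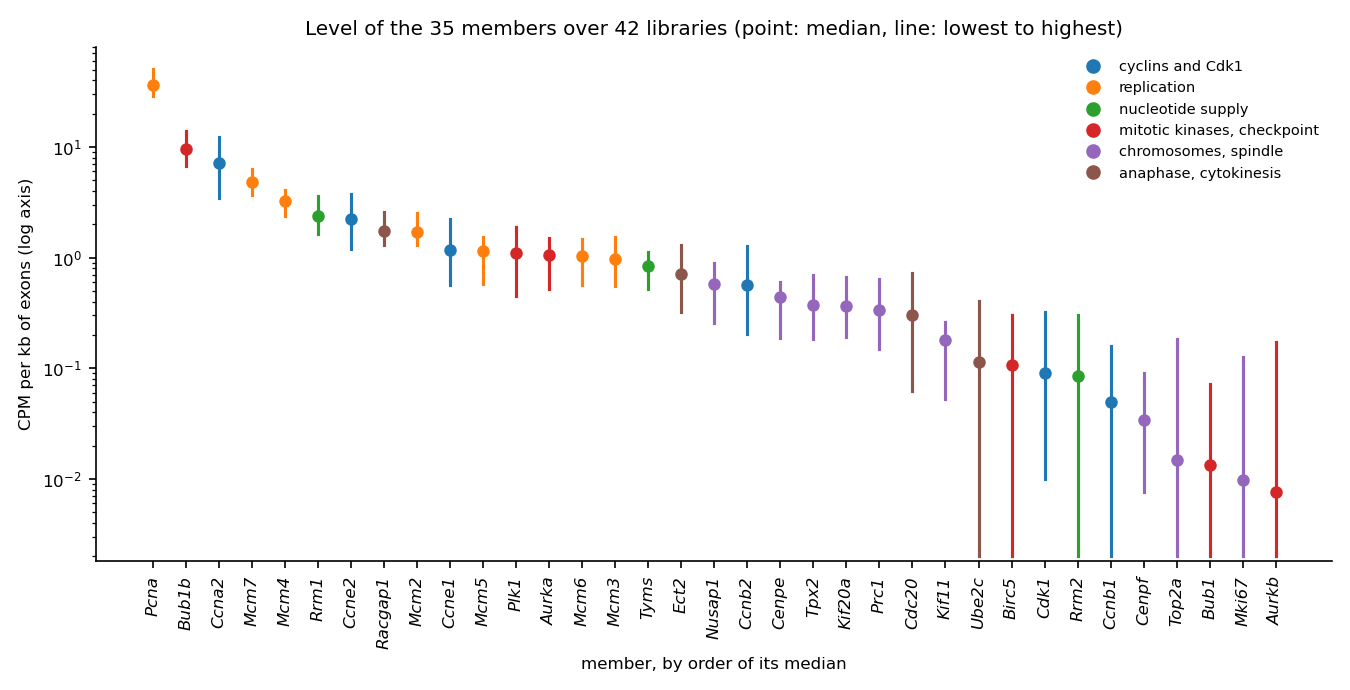
Median CPM per kb of exon of the 35 members over the 42 libraries on a log axis, ordered by level and coloured by role, with a line from the lowest to the highest library that is cut short near the foot of the axis where a library was at 0. Pcna stood highest at 36.3 CPM per kb and Aurkb lowest at 0.0077.

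*Mki67* and *Top2a*, both markers of dividing cells, had their highest medians at 3 dpl and were at or near the floor at 14 dpl. *Mki67* in control retinas had a lowest, median and highest value of 0.159, 0.433 and 1.28 CPM at 3 dpl (n = 7), 0, 0.171 and 0.285 CPM at 7 dpl (n = 6), and 0, 0.058 and 0.172 CPM at 14 dpl (n = 6). All 6 control libraries at 14 dpl and 2 of the 7 at 3 dpl were at the floor. In CPM 6 of the 7 at 3 dpl were above each library of 14 dpl. The lowest of these 6 was itself at the floor, with 3 counts, as many as the highest library of 14 dpl (0.174 against 0.172 CPM). With SCFA the values were 0, 0.332 and 0.786 CPM at 3 dpl (n = 7), 0, 0.054 and 0.350 CPM at 7 dpl (n = 9), and 0, 0 and 0.099 CPM at 14 dpl (n = 7). All 7 SCFA libraries at 14 dpl and 7 of 9 at 7 dpl were at the floor, and 4 of 7 at 3 dpl were above every library of 14 dpl.

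For *Top2a* the order of the days in controls was the same. There its lowest, median and highest values were 0.053, 0.408 and 1.67 CPM at 3 dpl, 0, 0.105 and 0.683 CPM at 7 dpl, and 0, 0 and 0.059 CPM at 14 dpl, where 5 of 6 libraries had 0 counts. Of the control libraries at 3 dpl, 6 of 7 were above every library at 14 dpl. With SCFA the values were 0.111, 0.255 and 0.514 CPM at 3 dpl, 0, 0.112 and 0.416 CPM at 7 dpl, and 0, 0.053 and 0.181 CPM at 14 dpl. The SCFA groups of 3 and 14 dpl overlapped, with 6 of 7 libraries of 14 dpl at the floor.

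These levels were a few counts per library, so folds against groups at the floor are lower bounds. In controls the mean of *Mki67* at 3 dpl, 0.576 ± 0.408 CPM (SD, n = 7), was at least 3.21-fold higher than the floor of 3 counts per library at 14 dpl, and that of *Top2a*, 0.573 ± 0.520 CPM, at least 3.20-fold higher. With SCFA, *Mki67* at 3 dpl, 0.295 ± 0.290 CPM (SD, n = 7), was at least 1.88-fold higher. These bounds hold for means that are not adjusted for sex or run of columns. In controls the highest library, male control 3 dpl replicate 1, had 1.28 CPM of *Mki67* and 1.67 CPM of *Top2a*. The female control libraries of 3 dpl had 0.159 to 0.433 CPM of *Mki67* and 0.053 to 0.371 CPM of *Top2a*, beside a floor of 0.179 CPM at 14 dpl. The filter on low counts asked for 0.565 CPM in at least 3 libraries. *Mki67*, *Rrm2* and *Ccnb1* passed it through 3 dpl libraries alone, and *Top2a* and *Ube2c* through 2 libraries of 3 dpl and 1 of 7 dpl, so that these genes entered the tests only because they were high early. *Bub1* and *Aurkb* did not pass. In all, 33 members were tested.

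**Figure D2:**
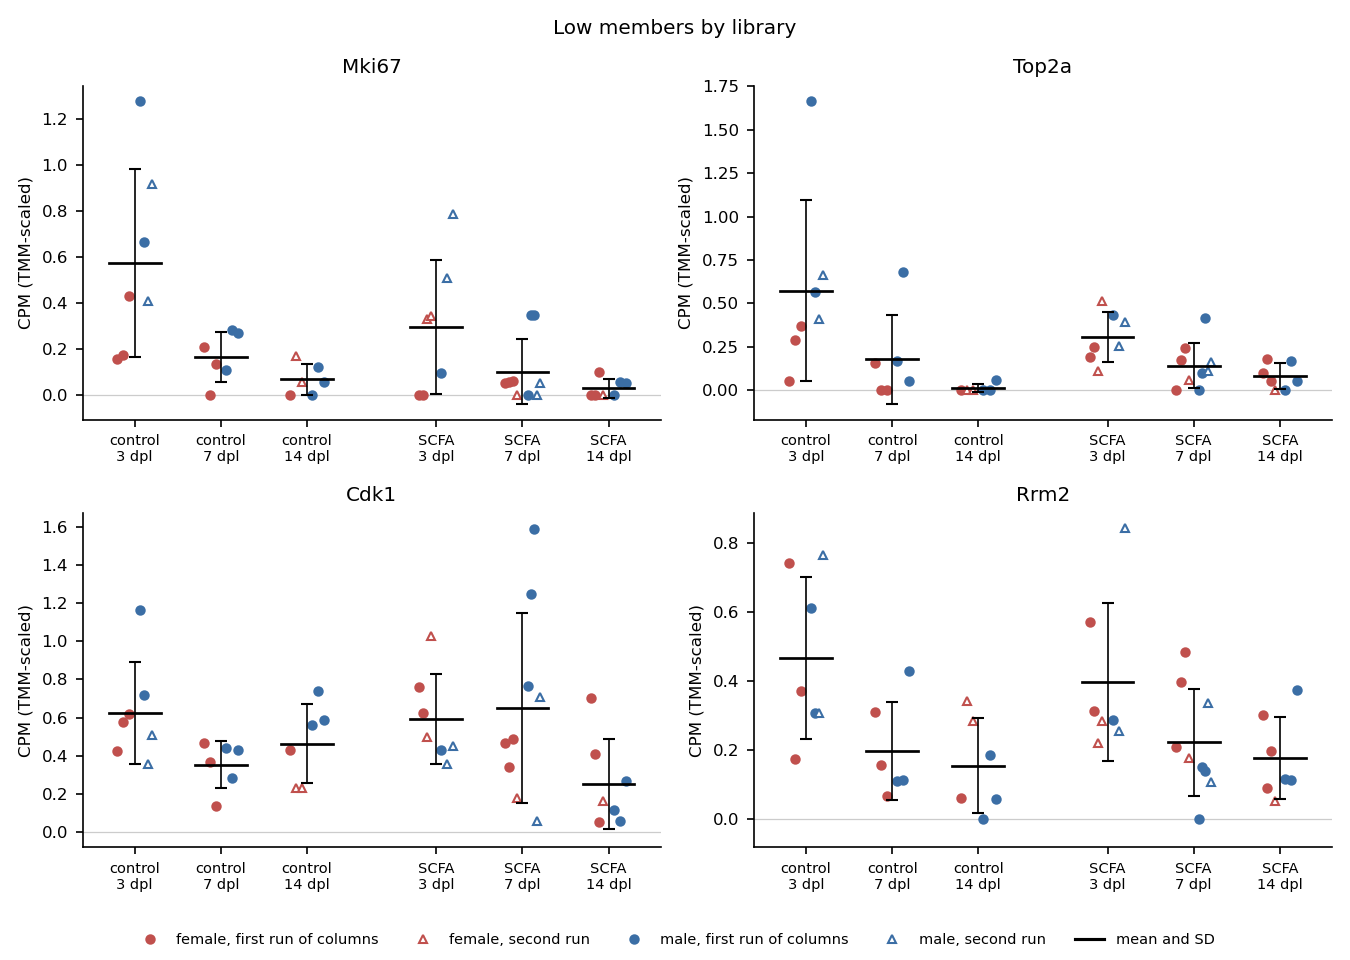
CPM of Mki67, Top2a, Cdk1 and Rrm2 in each of the 42 libraries by treatment and day, females in red and males in blue, filled circles for the first and open triangles for the second run of columns, with a bar at the mean and whiskers of 1 SD. In controls 6 of 7 libraries at 3 dpl were above every library at 14 dpl for Mki67 and for Top2a. For Mki67 the lowest of these was above by as little as 0.174 against 0.172 CPM, with both libraries at the floor of 3 counts.

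In control retinas, *Top2a* was the member called between 3 and 14 dpl, at an adjusted p under 0.1. The study set this threshold together with one on the fold change, which was applied here as an alternative (an absolute log2 fold change over 1) and which *Top2a* passed as well. Its log2 fold change was -4.95 (SE 1.04, adjusted p = 0.0633, edgeR's quasi-likelihood test, Benjamini-Hochberg over all genes tested), a fitted value that depends on the prior count since the group of 14 dpl was at the floor. Over all genes 0.116% were called in this comparison. *Top2a* passed the filter through 2 libraries of 3 dpl and 1 of 7 dpl. Its value after this filter is therefore a description and is not set against that share. In the fit without a filter *Top2a* was called as well, which is also a description, as the members were chosen with earlier results of these data known. *Mki67* had a log2 fold change of -2.64 (SE 0.78, edgeR's adjusted p = 0.460), *Cdk1* of -0.40 (SE 0.40, edgeR's adjusted p = 1.0) and *Pcna* of 0.01 (SE 0.079, edgeR's adjusted p = 1.0). The median over the 33 members tested was -0.08, and over all genes 0.0064. The call of *Top2a* was lost when any of the 6 control libraries of 14 dpl or female control 3 dpl replicate 2 or 3 was left out (adjusted p 0.110 to 0.246), and without male control 3 dpl replicate 1 or 4 the gene did not pass the filter.

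Between neighbouring days no member was called in controls. From 3 to 7 dpl edgeR's quasi-likelihood test called 0 of 33 members and 0% of all genes, with 6 members and 1293 genes at an unadjusted p under 0.05, while DESeq2 called 0 members and 14 genes. The log2 fold changes were -1.43 for *Mki67* (SE 0.68), -1.80 for *Top2a* (SE 0.69), -0.93 for *Cdk1* (SE 0.41) and -0.10 for *Pcna* (SE 0.080). From 7 to 14 dpl edgeR called 0 members and 0% of all genes, with 2 members and 1800 genes at an unadjusted p under 0.05, and DESeq2 called 0 members and 34 genes. Here *Mki67* changed by -1.22 on the log2 scale (SE 0.92), *Top2a* by -3.14 (SE 1.3), *Cdk1* by 0.53 (SE 0.45) and *Pcna* by 0.11 (SE 0.083), and none of the 4 passed the test.

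In SCFA retinas, the members called between 3 and 14 dpl were *Bub1b*, which rose, and *Cdk1*, the kinase that starts mitosis, which fell. *Bub1b* had 28.9, 37.7 and 43.5 CPM as the lowest, median and highest value at 3 dpl, 31.3, 39.2 and 49.1 CPM at 7 dpl and 42.1, 48.3 and 59.3 CPM at 14 dpl. Its log2 fold change from 3 to 14 dpl was 0.45 (SE 0.10, adjusted p = 0.0486, edgeR's quasi-likelihood test), and the ranges overlapped between 42.1 and 43.5 CPM. The background was 0.743% of all genes called. In controls *Bub1b* had 33.5, 38.0 and 47.7 CPM at 3 dpl and 35.3, 41.9 and 48.1 CPM at 14 dpl, which overlapped.

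*Cdk1* in SCFA retinas had 0.357, 0.499 and 1.03 CPM at 3 dpl, 0.056, 0.485 and 1.59 CPM at 7 dpl and 0.050, 0.161 and 0.703 CPM at 14 dpl. At 14 dpl 4 of 7 libraries were at the floor, at 3 dpl none, yet the ranges overlapped. The log2 fold change was -1.71 (SE 0.45, edgeR's adjusted p = 0.0960) from 3 to 14 dpl, -0.27 (SE 0.37, edgeR's adjusted p = 0.938) from 3 to 7 dpl and -1.44 (SE 0.41, edgeR's adjusted p = 0.116) from 7 to 14 dpl. The call was lost in 28 of the 42 fits that left out a library (adjusted p up to 0.265). That of *Bub1b* was lost in 6, those without female SCFA 14 dpl replicate 3, male SCFA 14 dpl replicate 1 or 3, female SCFA 3 dpl replicate 1 or 3 or male SCFA 3 dpl replicate 3 (adjusted p 0.10 to 0.186).

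*Mki67* in SCFA retinas changed by -2.80 on the log2 scale from 3 to 14 dpl (SE 0.92, edgeR's adjusted p = 0.160) and *Top2a* by -2.15 (SE 0.72, edgeR's adjusted p = 0.168), and neither passed the test. *Pcna* changed by -0.13 (SE 0.080, edgeR's adjusted p = 0.460). The median over the 33 members was -0.05 and over all genes 0.0194. The change of *Mki67* stood apart between the runs of columns: at 3 dpl the 3 SCFA libraries of the first run had 0, 0 and 0.096 CPM and the 4 of the second run 0.332, 0.343, 0.510 and 0.786 CPM, and within the first run alone the log2 fold change was 0.64.

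Between neighbouring days the SCFA groups gave no call among the members. From 3 to 7 dpl edgeR called 0 of 33 members and 0% of all genes, with 5 members and 955 genes at an unadjusted p under 0.05, and DESeq2 called 0 members and 0 genes. *Mki67* changed by -1.60 (SE 0.75), *Top2a* by -1.35 (SE 0.61) and *Pcna* by -0.18 (SE 0.073) on the log2 scale. From 7 to 14 dpl 0 members were called by edgeR against 0.319% of all genes, with 2 members and 2683 genes at an unadjusted p under 0.05. DESeq2 called 1 member, a count given without its share over all genes. *Mki67* changed by -1.20 (SE 1.03), *Top2a* by -0.80 (SE 0.75) and *Pcna* by 0.05 (SE 0.072).

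The change from 3 to 14 dpl did not differ detectably between SCFA and control. As an interaction, edgeR called 0 of 33 members and 0% of all genes, with 2 members and 760 genes at an unadjusted p under 0.05, and DESeq2 called 0 members and 0 genes. The difference, SCFA minus control, was 2.80 for *Top2a* (SE 1.39, edgeR's adjusted p = 0.955), -1.31 for *Cdk1* (SE 0.62, edgeR's adjusted p = 0.955), -0.16 for *Mki67* (SE 0.78, edgeR's adjusted p = 0.997) and -0.14 for *Pcna* (SE 0.11, edgeR's adjusted p = 0.955) on the log2 scale. With standard errors of this size, differences in the fall of the rare transcripts could not be resolved.

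Averaged over both treatments, a comparison added after the values had been seen, 5 members were called between 3 and 14 dpl. *Top2a* fell by 3.55 on the log2 scale (SE 0.63, adjusted p = 0.00218, edgeR's quasi-likelihood test), *Mki67* fell by 2.72 (SE 0.59, edgeR's adjusted p = 0.0142), *Rrm2* fell by 1.38 (SE 0.38, edgeR's adjusted p = 0.0778) and *Cdk1* fell by 1.06 (SE 0.30, edgeR's adjusted p = 0.0847). *Bub1b* rose by 0.27 (SE 0.070, edgeR's adjusted p = 0.0492). Over all genes 1.58% were called. Since *Mki67* and *Rrm2* passed the filter through 3 dpl libraries alone and *Top2a* through 2 of 3 dpl and 1 of 7 dpl, their values after this filter are a description and the count of 5 is not set against the share over all genes. In the fit without a filter edgeR's adjusted p was 3.63e-07 for *Top2a*, 7.08e-05 for *Mki67* and 0.0443 for *Rrm2*. These too are a description, as the comparison was added after the values had been seen. With the first run of columns alone none of the 5 was called, with edgeR's adjusted p of 0.199 for *Top2a* (log2 fold change -3.46) and 1.0 for *Mki67* (-1.95). The calls of *Bub1b*, *Rrm2* and *Cdk1* were lost in 6, 13 and 17 of the 42 fits that left out a library.

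*Rrm2*, the rarer subunit of ribonucleotide reductase, had 0.174, 0.371 and 0.763 CPM as the lowest, median and highest value in controls at 3 dpl, 0.067, 0.135 and 0.429 CPM at 7 dpl and 0, 0.124 and 0.343 CPM at 14 dpl. With SCFA it had 0.222, 0.287 and 0.842 CPM at 3 dpl, 0, 0.178 and 0.485 CPM at 7 dpl and 0.054, 0.117 and 0.373 CPM at 14 dpl. The groups of 3 and 14 dpl overlapped in both treatments, although 1 of 14 libraries at 3 dpl and 8 of 13 at 14 dpl were at the floor. The medians of *Rrm1*, the other subunit, were 30.3, 24.2 and 34.9 CPM in controls and 29.4, 22.2 and 24.5 CPM with SCFA.

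**Figure D3:**
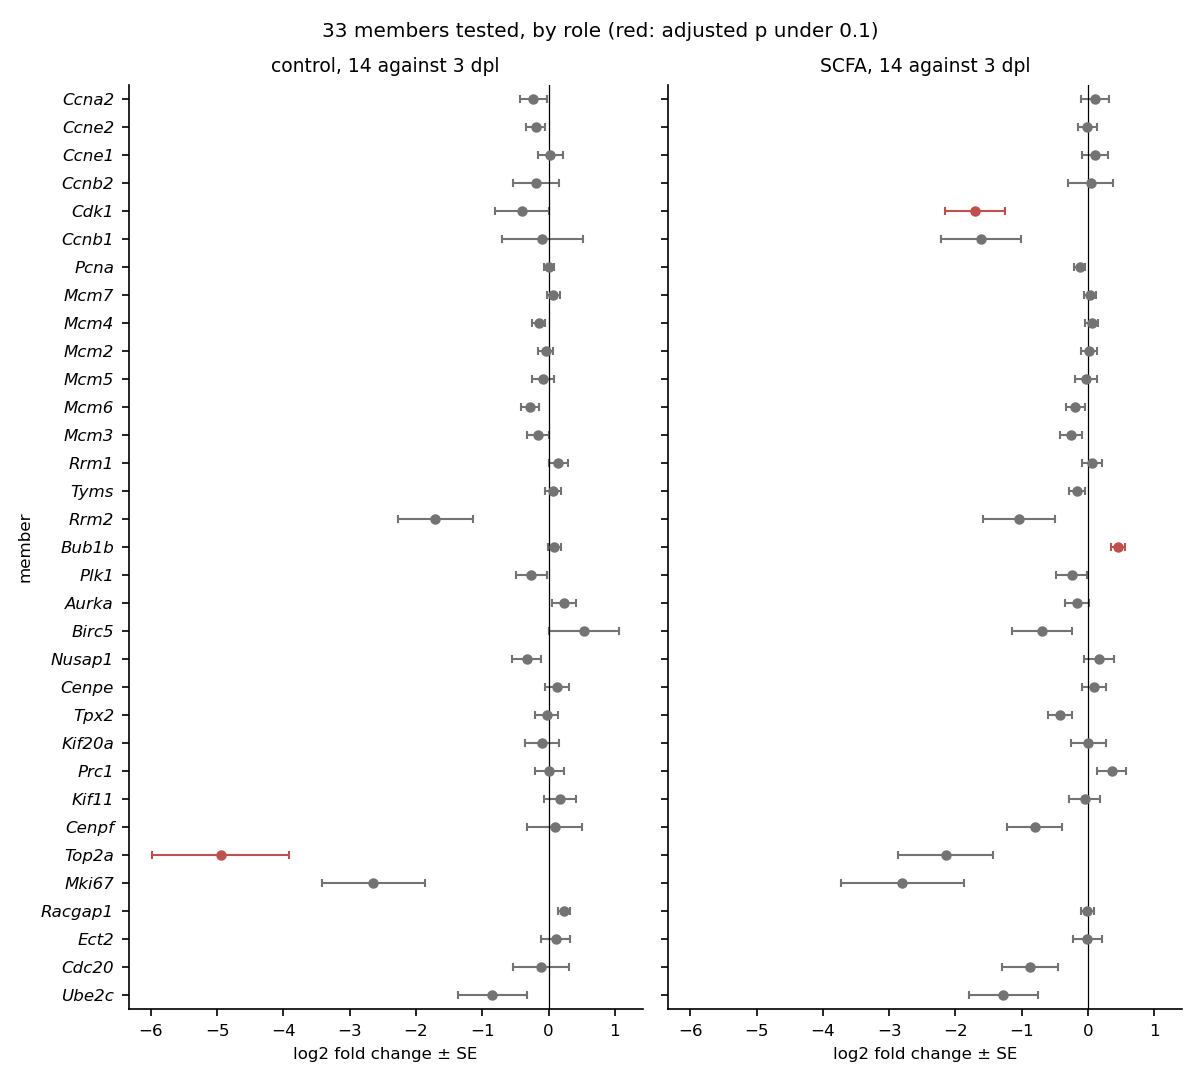
Log2 fold change from 3 to 14 dpl with whiskers of 1 SE for each of the 33 members tested, ordered by role, in controls (left) and with SCFA (right), in red where the adjusted p was under 0.1. The replication genes lie between -0.28 and 0.07, and Top2a and Mki67 at or below -2.15 in both treatments.

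No replication gene was called between days. *Pcna* in controls had 73.5, 80.6 and 95.7 CPM as the lowest, median and highest value at 3 dpl, 70.5, 78.9 and 94.2 CPM at 7 dpl and 69.4, 83.7 and 105 CPM at 14 dpl. With SCFA it had 86.2, 95.9 and 120 CPM at 3 dpl and 79.7, 91.3 and 108 CPM at 14 dpl. All of these ranges overlapped. From 3 to 14 dpl the log2 fold changes of *Pcna* and *Mcm2* to *Mcm7*, the 6 subunits of the helicase, lay between -0.28 and 0.07 in controls and between -0.26 and 0.06 with SCFA, and 0 of 7 passed the test in either treatment. *Tyms*, the thymidylate synthase, had medians of 5.33 and 5.68 CPM in controls and 4.49 and 5.02 CPM with SCFA at 3 and 14 dpl.

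Among the cyclins none was called between days. *Ccnb1*, the main mitotic cyclin, had medians of 0.305, 0.154 and 0.209 CPM in controls and 0.332, 0.225 and 0.107 CPM with SCFA at 3, 7 and 14 dpl. It was at the floor in 2 of 7, 4 of 6 and 3 of 6 control libraries of these days. With SCFA it was at the floor in 1 of 7, 2 of 9 and 6 of 7. *Ccnb2* had medians of 0.869, 0.728 and 0.809 CPM in controls and 1.0, 0.936 and 1.12 CPM with SCFA. *Ccna2* varied widely within groups, from 17.7 to 50.1 CPM among the 7 control libraries of 3 dpl alone. This gene was also lower in the second run of columns, by 0.56 on the log2 scale.

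Of the mitotic kinases and checkpoint genes, *Aurkb* had 0, 0.204 and 0.512 CPM as the lowest, median and highest value in controls at 3 dpl, and 0 counts in all 6 libraries at 14 dpl. Its sister kinase of the spindle poles, *Aurka*, had medians of 2.47 and 2.95 CPM in the same groups. *Plk1*, a kinase of mitotic entry, had medians of 2.11, 2.80 and 1.81 CPM in controls at 3, 7 and 14 dpl and 2.58, 2.25 and 2.76 CPM with SCFA. *Birc5* (survivin), a partner of Aurora B, had medians of 0.232 CPM in controls and 0.561 CPM with SCFA at 3 dpl, with ranges of 0 to 0.717 and 0.381 to 0.814 CPM that overlapped.

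Among the other chromosome and spindle genes none was called between days. *Cenpe*, a kinetochore motor, had medians of 3.36 and 3.73 CPM in controls and 3.82 and 3.92 CPM with SCFA at 3 and 14 dpl, and *Kif11*, the motor that pushes the spindle poles apart, 1.16 and 1.45 CPM in controls and 1.44 and 1.36 CPM with SCFA. *Kif20a*, *Nusap1*, *Tpx2* and *Prc1* had medians between 1.28 and 2.97 CPM in the 6 combinations of treatment and day. *Cenpf*, a kinetochore protein whose level peaks before mitosis, had medians of 0.444 and 0.455 CPM in controls and 0.720 and 0.595 CPM with SCFA.

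In anaphase and cytokinesis, *Ube2c*, the ubiquitin-conjugating enzyme of the anaphase-promoting complex, had medians of 0.356 and 0.152 CPM in controls and 0.408 and 0.198 CPM with SCFA at 3 and 14 dpl. At 3 dpl 1 of 14 libraries was at the floor for it and at 14 dpl 7 of 13, but no comparison of days called it. *Cdc20*, the activator of the same complex, had medians of 0.476 and 0.595 CPM in controls and 0.685 and 0.536 CPM with SCFA. *Racgap1* and *Ect2*, which set the position of the cleavage furrow, had medians of 12.3 and 3.84 CPM over the 42 libraries and were not called between days.

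Summed over the 12 members with a median below 1 CPM, the level went from 5.69 ± 2.41 CPM (SD, n = 7) at 3 dpl to 3.84 ± 0.83 CPM at 7 dpl (n = 6) and 3.41 ± 0.65 CPM at 14 dpl (n = 6) in controls. With SCFA the sum was 5.72 ± 1.24 CPM (n = 7), 4.39 ± 0.84 CPM (n = 9) and 3.22 ± 0.61 CPM (n = 7). The SCFA libraries of 3 dpl (4.25 to 8.03 CPM) and 14 dpl (2.55 to 4.37 CPM) overlapped by little, and those of the controls (3.82 to 10.2 and 2.75 to 4.57 CPM) by more. These sums are a description, as the members were chosen with earlier results of these data known. The mean of log2(CPM + 1) over the 35 members moved by -0.0486 from 3 to 7 dpl and by -0.0699 from 3 to 14 dpl in controls and by -0.0749 and -0.0855 with SCFA, against a residual SD of 0.0538 between libraries of a group. Restricted to the 23 members with a mean of at least 1 CPM, the change from 3 to 14 dpl was -0.0144 in controls and -0.00354 with SCFA.

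**Figure D4:**
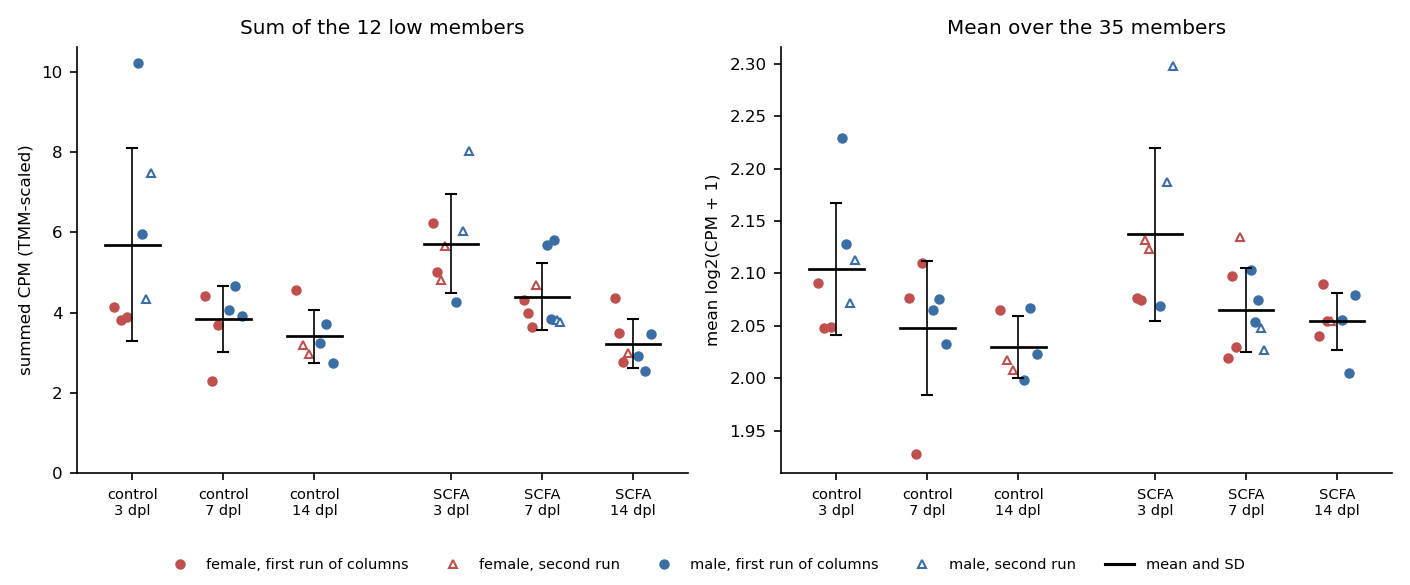
Summed CPM of the 12 members with a median below 1 CPM (left) and mean log2(CPM + 1) over the 35 members (right) in each library by treatment and day, with symbols for sex and run of columns, a bar at the mean and whiskers of 1 SD. The mean of the sum goes from 5.69 to 3.41 CPM in controls and from 5.72 to 3.22 CPM with SCFA between 3 and 14 dpl.

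Of the 35 members, 2 (*Top2a* and *Ccnb1*) were higher in every male than in every female control library of 3 dpl. Another 2 (*Plk1* and *Pcna*) were lower. The share of all genes without overlap was not determined, so these counts are not a result about the members. All 3 female libraries were of the first run of columns and 2 of the 4 male libraries of the second. The CPM values are not adjusted for the run. *Mki67* had 1.28, 0.666, 0.408 and 0.916 CPM in the 4 male and 0.159, 0.174 and 0.433 CPM in the 3 female control libraries, and *Top2a* 1.67, 0.564, 0.408 and 0.662 CPM in males and 0.053, 0.290 and 0.371 CPM in females. *Mki67* overlapped between the sexes. *Pcna* ran from 73.5 to 80.6 CPM in males and from 93.2 to 95.7 CPM in females, and *Plk1* from 1.17 to 2.11 CPM in males and from 2.65 to 3.83 CPM in females. No member was called there: males exceeded females by 2.01 on the log2 scale for *Top2a* (SE 0.79, edgeR's adjusted p = 0.816) and by 1.56 for *Mki67* (SE 0.83, edgeR's adjusted p = 0.881), where 0.0495% of all genes were called. Over all treatments and days, the member called between the sexes was *Pcna*, lower in males by 0.17 on the log2 scale (SE 0.044, edgeR's adjusted p = 0.0602), against 1.90% of all genes. That call was lost without male SCFA 3 dpl replicate 1, female control 14 dpl replicate 1, male control 14 dpl replicate 3 or male control 7 dpl replicate 3 (adjusted p 0.104 to 0.114). Within each sex and treatment 0 members were called between 3 and 14 dpl by edgeR, with 7 and 3 members at an unadjusted p under 0.05 in male and female controls and 5 and 3 in males and females with SCFA. The same unadjusted threshold was passed by 2261 and 1133 of the 18173 genes in male and female controls. With SCFA it was passed by 662 genes in males and 3440 in females. Over all genes 0.00550% were called in male controls, 0% in female controls, 0% in males with SCFA and 2.49% in females with SCFA.

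Between SCFA and control, 5 members were called at 7 dpl, a smaller share than that of all genes, and 1 member at 14 dpl. At 3 dpl edgeR called 0 of 33 members, where 3.79% of all genes were called, with 3 members and 3196 genes at an unadjusted p under 0.05. DESeq2 called 0 members. At 7 dpl 5 of 33 members (15.2%) were called against 28.7% of all genes, and 0 with the threshold on the fold change added. At 14 dpl 1 of 33 (3.03%) was called against 1.57% of all genes. The calls are given gene by gene below and are not a result about the members as a set. Whether the number of members called differs between days was not tested.

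*Ccne2*, a cyclin of the entry into S phase, rose with SCFA at 7 dpl: its lowest, median and highest values were 4.16, 6.30 and 7.24 CPM in controls (n = 6) and 7.46, 8.73 and 13.1 CPM with SCFA (n = 9), without overlap. Its log2 fold change was 0.63 (SE 0.14, adjusted p = 0.00114, edgeR's quasi-likelihood test). Its paralogue *Ccne1* moved the other way, from 2.96, 3.40 and 5.97 CPM in controls to 1.5, 2.96 and 3.48 CPM with SCFA, a log2 fold change of -0.61 (SE 0.19, edgeR's adjusted p = 0.0167), with overlap. *Mcm7* fell from 21.1, 25.2 and 28.2 CPM to 16.4, 20.2 and 23.5 CPM, by 0.29 on the log2 scale (SE 0.090, edgeR's adjusted p = 0.0207).

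*Kif11* and *Ect2* also rose, with overlap between the groups. *Kif11* had 0.590, 0.986 and 1.41 CPM in controls and 1.15, 1.46 and 1.94 CPM with SCFA at 7 dpl (log2 fold change 0.61, SE 0.23, edgeR's adjusted p = 0.0560). *Ect2* had 1.73, 3.56 and 5.89 CPM in controls and 2.39, 4.21 and 7.04 CPM with SCFA (log2 fold change 0.53, SE 0.21, edgeR's adjusted p = 0.0594). Without female control 7 dpl replicate 2, the library with Y-linked transcripts, *Ccne2* (edgeR's adjusted p = 0.00429) and *Mcm7* (edgeR's adjusted p = 0.0132) were the 2 members called, and without male control 7 dpl replicate 3 there were 3. At 14 dpl *Mcm4* had 8.61, 9.38 and 14.4 CPM in controls and 11.9, 12.6 and 13.5 CPM with SCFA, a log2 fold change of 0.33 (SE 0.096, edgeR's adjusted p = 0.0968) that was lost in 27 of the 42 fits without a library.

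**Figure D5:**
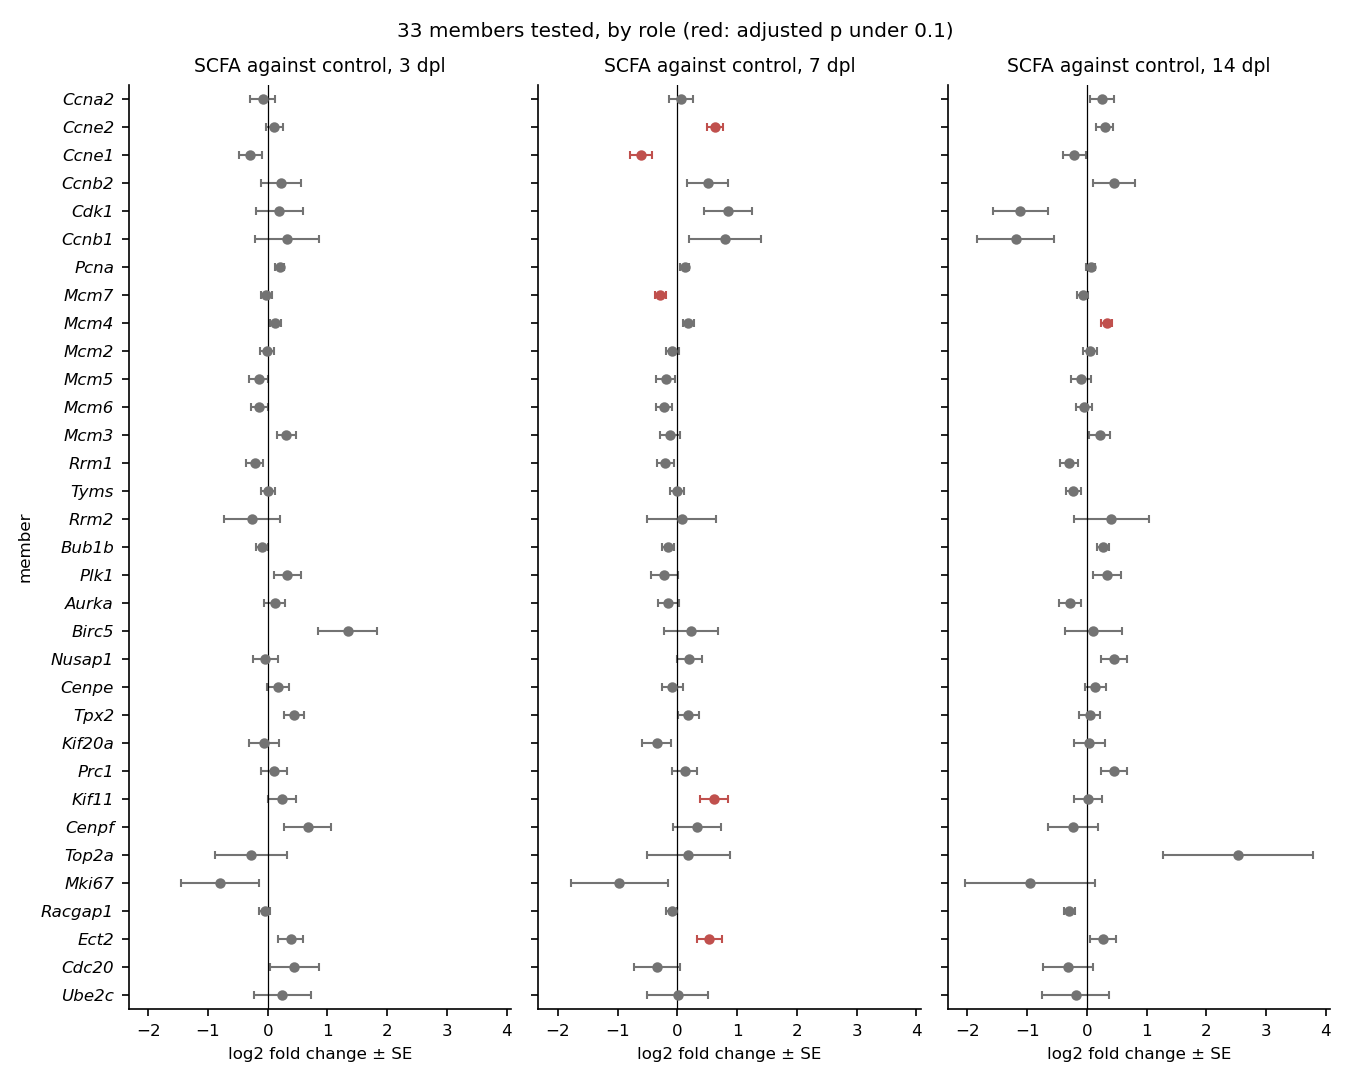
Log2 fold change of SCFA against control with whiskers of 1 SE for each of the 33 members tested, ordered by role, at 3, 7 and 14 dpl, in red where the adjusted p was under 0.1. Red points are Ccne2, Ccne1, Mcm7, Kif11 and Ect2 at 7 dpl and Mcm4 at 14 dpl.

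Other cell cycle genes were read from 4 lists. Averaged over both treatments, 0 of 43 further genes of G2 and mitosis (median log2 fold change -0.06), 0 of 51 of S phase (-0.05) and 0 of 16 of G1 (-0.08) were called between 3 and 14 dpl, where 1.58% of all genes were called. Of the 23 inhibitors of the cycle 1 was called, *Cdkn2c* (p18), at -0.21 on the log2 scale (edgeR's adjusted p = 0.0893), and a single call is not a result about the list. The median over all genes was 0.0123.

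Between SCFA and control at 7 dpl, 10 inhibitors were higher and 4 lower of 23 (60.9%), where 28.7% of all genes were called. The smallest adjusted p was that of *Cdkn1b* (p27), which holds back cyclin E kinase and was higher with SCFA by 0.83 on the log2 scale (edgeR's adjusted p = 4.77e-05), followed by *Tob1* (0.59, edgeR's adjusted p = 0.000180), *Ccng1* (0.37, edgeR's adjusted p = 0.000204) and *Cdkn2c* (0.40, edgeR's adjusted p = 0.000749). G1 genes were higher in 5 and lower in 1 of 16, among them *Mycn* (0.52, edgeR's adjusted p = 0.00286), *E2f3* (0.43, edgeR's adjusted p = 0.00317), *E2f5* (0.52, edgeR's adjusted p = 0.00718) and *Ccnd1*, cyclin D1 (0.50, edgeR's adjusted p = 0.0241). Genes of S phase were higher in 4 and lower in 8 of 51, with *Usp1* up (0.34, edgeR's adjusted p = 0.00220) and *Chaf1a* (-0.54, edgeR's adjusted p = 0.00657), *Pole* (-0.59, edgeR's adjusted p = 0.0192) and *Cdc45* (-0.42, edgeR's adjusted p = 0.0287) down. Of 43 further genes of G2 and mitosis 3 were higher, among them *Mad2l1* (0.51, edgeR's adjusted p = 0.000169) and *Spc25* (0.78, edgeR's adjusted p = 0.000176), and 4 lower, among them *Espl1* (-0.64, edgeR's adjusted p = 0.0293) and *Ckap2l* (-1.22, edgeR's adjusted p = 0.0382).

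At 3 dpl 3.79% of all genes were called between SCFA and control. In G2 and mitosis *Mad2l1* (0.48, edgeR's adjusted p = 0.0205), *Nuf2* (0.95, edgeR's adjusted p = 0.0501) and *Cks2* (0.73, edgeR's adjusted p = 0.0566) were higher, 3 of 43, and in S phase 0 of 51. Of the G1 genes 1 was higher and 1 lower of 16. Of the inhibitors 2 were higher and 2 lower of 23 (17.4%), with *Cdkn1a* (p21) lower by 0.70 on the log2 scale (edgeR's adjusted p = 0.0562). At 14 dpl *Cdkn1a* was again lower, by 1.01 (edgeR's adjusted p = 0.00805), as the 1 gene called among the 4 lists.

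Markers of immune cells and of pericytes and fibroblasts were in part lower at 14 than at 3 dpl, and those of endothelial cells were not called. Averaged over both treatments, where 1.58% of all genes were called, 6 of 14 microglia and macrophage markers were lower at 14 than at 3 dpl, led by *C1qb* (log2 fold change -0.81, edgeR's adjusted p = 5.11e-05), as were 2 of 4 monocyte and neutrophil markers tested, *Lyz2* (-1.34, edgeR's adjusted p = 0.000516) and *Ccr2* (-4.26, edgeR's adjusted p = 0.00409), and 6 of 10 pericyte and fibroblast markers, led by *Col3a1* (-2.52, edgeR's adjusted p = 0.000516). Of 10 endothelial and 10 rod markers 0 were called. Through which libraries rare markers such as *Ccr2* passed the filter on low counts was not determined, so these counts of markers are a description. In controls the summed microglia markers ran from 89.7 to 155 CPM at 3 dpl and from 74.8 to 101 CPM at 14 dpl, the monocyte and neutrophil markers from 8.88 to 59.7 and from 5.75 to 11.5 CPM, and the pericyte and fibroblast markers from 157 to 235 and from 124 to 159 CPM. With SCFA these sums ran from 73.5 to 130 and from 56.0 to 97.8 CPM, from 10.5 to 32.1 and from 4.96 to 13.4 CPM, and from 131 to 232 and from 117 to 148 CPM. The highest monocyte and neutrophil sum, 59.7 CPM, was in male control 3 dpl replicate 1, which also had the highest *Mki67* and *Top2a*, and 2 of the 8 genes of that list were at the floor in all libraries. The part of these cells in the change of the members was not tested.

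At 7 dpl 9 of 14 lens markers were higher with SCFA than in controls, with sums of 68.4 to 651 CPM with SCFA and 77.0 to 192 CPM in controls. Müller glia markers were higher with SCFA in 4 and lower in 1 of 9. Microglia markers were lower in 4 of 14 (28.6%), the share called over all genes being 28.7%. Pigment epithelium markers summed to 214 to 883 CPM in controls and 105 to 440 CPM with SCFA at 7 dpl. Myelin markers ran from 24.3 to 881 CPM in controls and from 28.3 to 662 CPM with SCFA. Rod markers ran from 81167 to 98225 and from 55813 to 114192 CPM. The part of these tissues and cells in the differences of *Ccne2*, *Ccne1*, *Mcm7*, *Kif11* and *Ect2* was not tested.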

How the data were processed

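Total RNA of mouse retinas was sequenced at Novogene in paired-end mode on a NovaSeq instrument. The authors deposited raw counts of reads per gene for 54532 gene identifiers in 43 libraries, without normalization. The submitters' processing notes name mm10 and DESeq2, and the aligner, annotation and strand setting are not given in the sources used here. Genes were named and placed by GENCODE M21 (GRCm38), where 54495 of the identifiers were found. The labels gave each library its group by title.

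In R 4.3.3, genes with low counts were removed by filterByExpr (0.565 CPM in at least 3 libraries, 18173 genes left) and 42 libraries were scaled by TMM (factors 0.943 to 1.09). They were fitted together in edgeR 4.0.16 with terms for group and for run of columns, leaving 29 residual degrees of freedom. Contrasts averaged the sexes and were tested by the quasi-likelihood test with Benjamini-Hochberg adjustment over all genes, at an adjusted p under 0.1. The standard error was the log2 fold change divided by the square root of F. The test was also run on simulated counts with known changes in randomly drawn genes and no effect of the run of columns. That simulation was not aimed at genes with a few counts, such as *Mki67* and *Top2a*. DESeq2 1.42.0 was an alternative, and the others are named in the closing section. CPM per kb used the union of exons. Promoters were the RefSeq table's windows. Python 3.11.15, pandas 2.3.3, numpy 2.4.6 and matplotlib 3.10.9 were used.

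The genes named are *Mki67*, *Top2a*, *Cdk1* and *Pcna* in every comparison of days, each member called in a comparison, and up to 4 genes with the smallest adjusted p of each further list. The remaining members are given by levels and ranges. The members and lists were chosen with earlier results of these data known. The 2 retinas of a library came from different animals. The mM doses are those of the methods, where the g/L values beside them differ for propionate and butyrate.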

Additional observations from a re-analysis of the deposited data

Results flagged for a closer look

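In 70 tests of the lowest or highest library of a group of 4 or 5, 4 libraries stood apart from the rest of their group by Dixon's criterion, where chance alone gives about 1 in 20 groups. *Mki67* in female SCFA 14 dpl replicate 3 was at 0.0991 CPM, with 0 in the others, and in female SCFA 7 dpl replicate 4 it was at 0, with 0.0520 to 0.0606 CPM in the others. All of these *Mki67* values are at the floor. *Kif11* in female SCFA 7 dpl replicate 3 was at 1.94 CPM (others 1.46 to 1.53 CPM), and *Ect2* in female SCFA 7 dpl replicate 1 at 6.71 CPM (others 4.15 to 4.49 CPM). Without that library *Ect2* was no longer called between SCFA and control at 7 dpl (edgeR's adjusted p = 0.129).

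The library left out for its lens transcripts, female SCFA 3 dpl replicate 2, exceeded the 3 female control libraries of 3 dpl in 6 of the members named with values. It had 0.656 CPM of *Top2a* (controls 0.0529 to 0.371 CPM), 1.64 CPM of *Cdk1* (0.424 to 0.618 CPM) and 0.983 CPM of *Rrm2* (0.174 to 0.741 CPM). *Pcna* was at 96.2 CPM (93.2 to 95.7 CPM), *Mcm4* at 12.9 CPM (8.90 to 12.9 CPM) and *Ccne2* at 11.1 CPM (7.31 to 11.1 CPM). Over all 35 members it was above the 3 controls in 13 and below them in 10. The share over all genes was not determined, so these counts are not a result about the members. Among the lower ones were *Mki67* at 0.0819 CPM (controls 0.159 to 0.433 CPM), *Bub1b* at 28.8 CPM (38.0 to 41.9 CPM), *Ccna2* at 10.5 CPM (22.8 to 42.2 CPM) and *Kif11* at 0.492 CPM (0.869 to 1.16 CPM). For *Mki67* the left-out library, with 1 count, and female control 3 dpl replicates 1 and 2, with 3 counts each, were all at the floor. This library also had 522 CPM of pericyte and fibroblast markers and 154 CPM of microglia and macrophage markers, against ranges of 117 to 235 and 56.0 to 155 CPM in the 42 libraries analysed. The part of these cells in its values was not tested.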

How the results depend on the processing

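Over the alternatives, members called from 3 to 14 dpl in controls numbered 0 at an adjusted p under 0.05, with a stricter filter (at least 10 counts in at least 1 of every 2 libraries), without the run block, with the first run alone and with only the groups compared, and 3 without a filter (*Top2a*, *Mki67* and *Aurkb*). With SCFA they numbered 1 at an adjusted p under 0.05, with the further threshold of 1 on the log2 fold change, with DESeq2, with the stricter filter, with a robust fit and with only the groups compared, 0 without the run block and with the first run alone, 4 without a filter and 5 with the library of lens transcripts kept. From 7 to 14 dpl with SCFA, DESeq2 called 1 and the fit without a filter 2. Averaged over both treatments, there were 3 at an adjusted p under 0.05, 1 with the stricter filter, 2 without the run block and 0 with the first run alone. Between SCFA and control, the first run alone called 1 at 3 dpl (*Mki67*), and at 7 dpl 3 members were called at an adjusted p under 0.05 and without a filter, and 0 with the fold threshold. At 14 dpl, DESeq2 called 2, and there were 0 at an adjusted p under 0.05, with the fold threshold, without a filter, without the run block, with the lens library kept, with the first run alone, with a robust fit and with only the groups compared. Between the sexes there were 0 at an adjusted p under 0.05, with the fold threshold and without the run block, and 2 with RLE scaling, DESeq2, the stricter filter or the lens library kept. The counts of members called in this section, also those of the fits below, stand without the share over all genes in each fit. They show how the calls moved and are not a result about the members. The cause of these changes was not tested.

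Replicate numbers did not pair the libraries: same-numbered libraries of different groups had a mean correlation of deviations of 0.000512 (lowest -0.336), and 12 of 42 libraries were closest to a library of their own number. With the replicate block the members called were 0 from 3 to 14 dpl in controls and 0 with SCFA, 3 averaged over both treatments and 2 between the sexes.

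Leaving out each library in turn gave 0 to 1 members from 3 to 14 dpl in controls, 0 to 3 with SCFA and 2 to 6 averaged over both treatments, 0 to 2 from 7 to 14 dpl with SCFA, 2 to 6 between SCFA and control at 7 dpl and 0 to 2 at 14 dpl, and 0 to 2 between the sexes. Log2 fold changes turned for *Mki67* with the first run alone (2.21 from 3 to 7 dpl and 0.64 from 3 to 14 dpl with SCFA), for *Cdk1* from 3 to 7 dpl with SCFA (0.048 without the run block and 0.38 with the first run alone), and for *Pcna* from 3 to 14 dpl in controls (0.01 with all 42, -0.057 to 0.088 without each library, and below 0 without female control 14 dpl replicate 1 (-0.057) or 3 (-0.022), male control 14 dpl replicate 1 (-0.012) or female control 3 dpl replicate 3 (-0.0015)).

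The change in mean log2(CPM + 1) over members grew with a pseudocount of 0.1, to -0.177 and -0.244 from 3 to 7 and to 14 dpl in controls and to -0.200 and -0.290 with SCFA. It shrank with the first run alone to -0.00927 and -0.0183 with SCFA, and with the 23 more abundant members to -0.0144 in controls and -0.00354 with SCFA from 3 to 14 dpl. Without a library each it ran from -0.0666 to -0.0210 and from -0.0826 to -0.0535 in controls and from -0.111 to -0.0491 and from -0.126 to -0.0616 with SCFA. The value of -0.0210 was that without female control 7 dpl replicate 2, the library with Y-linked transcripts. Depth limits the values of *Mki67*, *Top2a*, *Bub1* and *Aurkb*, which were at the floor in 27 to 36 of the 42 libraries.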
